A study of Mus musculus with 2 samples.

Results

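The 36 genes described here are type I interferon stimulated genes, chosen by name as known targets of the pathway. The choice was made with earlier results of these data known. The genes were matched by symbol to the rows of the deposited expression table. All 36 were found among its 22216 rows. The table holds RNA sequencing of whole mouse spleen from the non-obese diabetic (NOD) strain background, with 1 library of the genotype NOD.g7 and 1 of the genotype NOD.L7, each made from total RNA of the pooled spleens of 3 mice. The series title calls the second genotype NOD.Lc7, and the labels used here give neither the meaning of g7, L7 or Lc7 nor the age, sex, treatment or disease state of the mice. Values are RPKM, which scales reads by the length of the gene and the depth of the library. Where a gene has a pair of values, NOD.g7 comes first. The values rest on 9.13 Gb of mapped sequence for NOD.g7 and 12.1 Gb for NOD.L7. With 1 library per genotype there is no replicate, so every difference below is one between these 2 libraries, without a p-value or a standard error.

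Type I interferons are a family of cytokines, interferon alpha and beta among them, that are made when a cell senses viral or misplaced nucleic acid. They bind the receptor pair Ifnar1 and Ifnar2, whose kinases Jak1 and Tyk2 phosphorylate STAT factors such as Stat2. Stat2 and Irf9 are part of the complex ISGF3, which binds interferon stimulated response elements in the promoters of target genes. The targets encode sensors, antiviral effectors, the transcription factor Irf7 and feedback inhibitors, and in the spleen of an unchallenged mouse they are also expressed at a basal level. In NOD mice a type I interferon signature has been studied as an early feature of autoimmune diabetes.

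The response element is the sequence that these genes are known for, and it is shown for members with large and with small differences. Mouse promoters from RefSeq (build GRCm38.p6, the 250 bases before each annotated start) were available for 25 of the 36 genes, and both strands were searched for GAAANNGAAA, a core of the element in which overlapping matches were allowed. The motif was present upstream of 9 of the 25, or 36%, against 3.46% of 27025 genes with a promoter. The stretches below hold the matches in capitals with up to 20 bases on either side, written 5′ to 3′ on the strand of the gene. Matches read as GAAANNGAAA or as its reverse complement. Rsad2, Oas1a and Oas3 are the matched genes with the largest differences between the libraries. Ifit3 and Ifit1 lie in the same gene cluster and had unequal differences, and Isg15 and Bst2 differed little.
Rsad2 (chr12:26456543-26456592, minus strand): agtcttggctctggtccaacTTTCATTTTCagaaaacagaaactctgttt
Oas1a (chr5:120907526-120907565, minus strand): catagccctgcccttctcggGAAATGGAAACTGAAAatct
Oas3 (chr5:120777705-120777754, minus strand): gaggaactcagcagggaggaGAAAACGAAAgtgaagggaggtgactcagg
Ifit3 (chr19:34583353-34583436, plus strand): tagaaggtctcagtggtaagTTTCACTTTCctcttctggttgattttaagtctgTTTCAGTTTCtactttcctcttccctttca
Ifit1 (chr19:34640765-34640833, plus strand): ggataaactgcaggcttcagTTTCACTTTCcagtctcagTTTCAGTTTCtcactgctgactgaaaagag
Isg15 (chr4:156200855-156200916, minus strand): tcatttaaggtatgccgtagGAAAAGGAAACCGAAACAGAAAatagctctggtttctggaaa
Bst2 (chr8:71537567-71537622, minus strand): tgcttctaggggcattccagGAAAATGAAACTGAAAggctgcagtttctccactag

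The element lay at different distances from the start. In Rsad2 a single match began 120 bases upstream, and in Oas1a a pair of overlapping matches began 20 bases upstream. Isg15 held 3 overlapping matches beginning 78 bases upstream. Ifit3 and Ifit1 each held 2 separate matches. Stat2 and Ifi203 were the other genes with a match. A match describes the letters only, and binding was not measured.

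Most of the 36 genes were lower in NOD.L7 than in NOD.g7, by unequal amounts. Leaving aside Ifi44, which stayed under an RPKM of 1, those furthest apart were the antiviral effector Rsad2 and the oligoadenylate synthetases Oas1a, Oas3 and Oasl2, which were 1.74-fold to 2.63-fold lower. Usp18, Isg20, Herc6 and Cmpk2 followed, at 1.45-fold to 1.53-fold lower. Ifi44 was 3.55-fold lower (counting interval 2.21 to 5.64), at 0.384 in the NOD.g7 library and 0.108 in the NOD.L7 library. The transcription factors Irf7 and Stat2, the sensors Ddx58 and Ifih1, and Adar, Bst2, Parp9 and Dtx3l were within 5% of equal. So were Ifit1, Ifit2, Ifi204 and Isg15. Zbp1 was the gene furthest to the other side, 1.31-fold higher in NOD.L7. In bulk spleen RNA, fewer cells of a type and less RNA per cell cannot be told apart.

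Differences were also expressed on a log2 scale, as the ratio of NOD.L7 to NOD.g7 after adding 1 to each RPKM. This was done for genes that reached an RPKM of 1 in at least 1 library, and the added 1 pulls the ratios of low genes towards 0. Of the 36 genes 35 met that filter, as did 11141 genes of the table. Ifi44 did not. Of the 35 genes 29 were below 0, beside 43.8% of all genes that met the filter. The median log2 ratio was -0.11 for the 35 genes and 0.02 for all genes. At or below -0.5 were 6 of the 35, namely Rsad2, Oas1a, Oas3, Oasl2, Isg20 and Usp18, and the share over all genes was 1.58%. Herc6 lay just outside that bound at -0.496, and Usp18 just inside it at -0.512. None of the 35 was at or above 0.5, a level that 2.52% of all genes reached. An absolute log2 ratio of at least 1 was reached by 1 of the 35, Rsad2 at -1.11, and by 0.709% of all genes. When the median of all genes was centred to 0, or a TMM factor (a trimmed mean of ratios) was applied, Adar and Dtx3l moved from just above 0 to just below it, and 31 of the 35 were then below 0. Either setting lowers ratios across the whole table, so the share of all genes below 0 rises too, and that share was not counted. The 9 genes with a motif in the promoter ranged from -1.11 to 0.06 with a median of -0.17, and the 15 matched genes that met the filter and had none ranged from -0.63 to 0.04 with a median of -0.10.

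**Figure D1:**
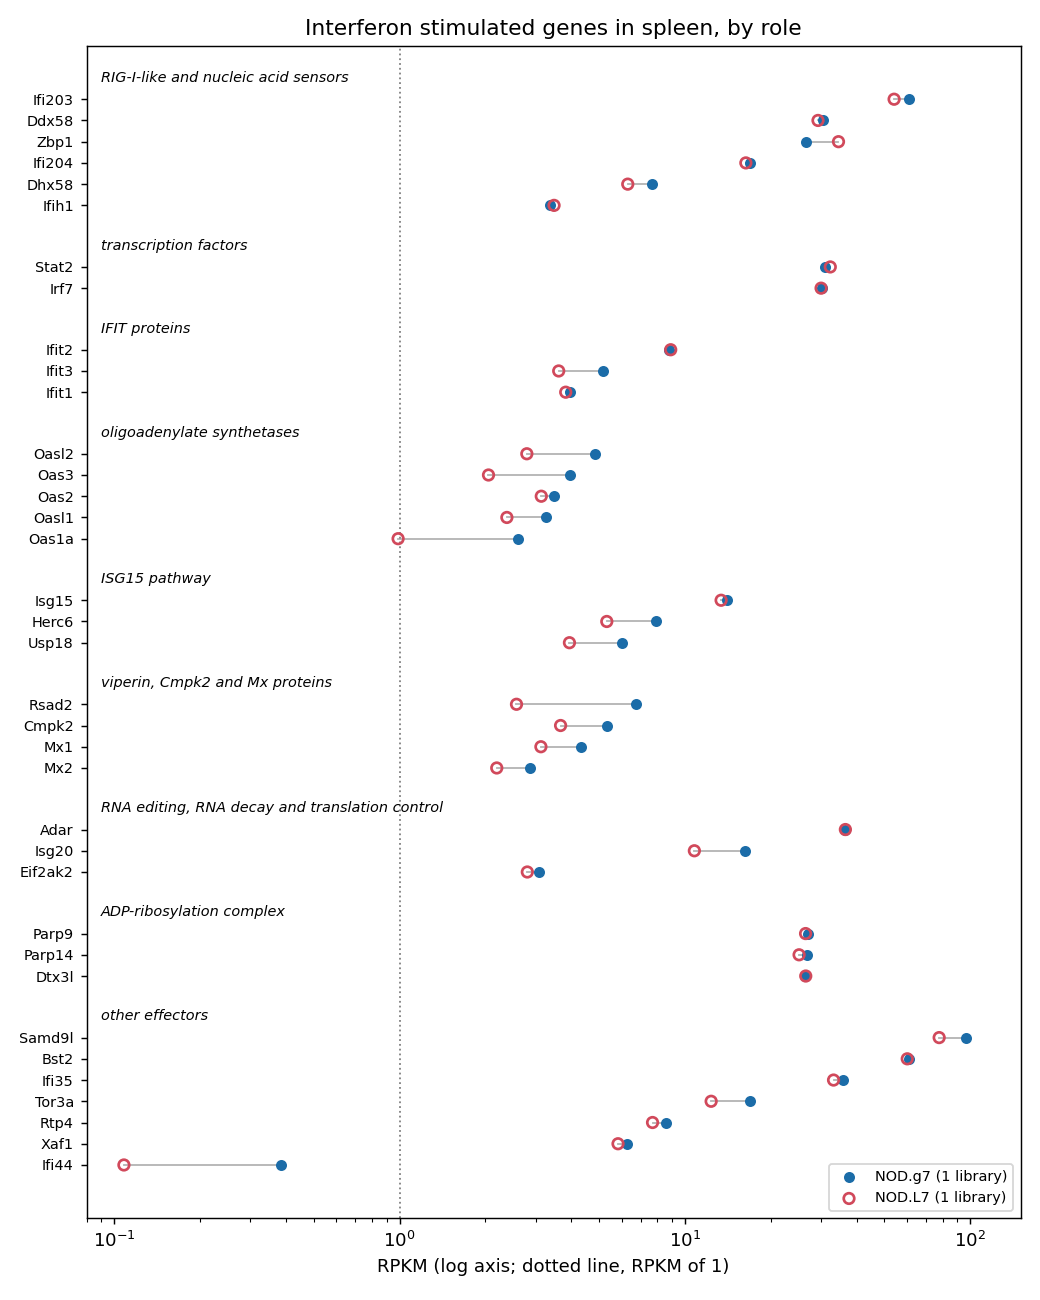
RPKM on a log axis for the 36 genes, grouped by role, with a filled blue point for the NOD.g7 library and an open red point for the NOD.L7 library. All 5 oligoadenylate synthetases lie to the left in NOD.L7, while the points of Irf7, Adar and Dtx3l almost coincide, and Ifi44 lies under the dotted line at an RPKM of 1.

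The precision of each fold was approximated from the number of fragments behind it, taken from the RPKM, the longest annotated transcript and 200 bases per fragment. The numbers ran from 27 for Ifi44 in NOD.L7 to 25061 for the most deeply covered value. The 95% interval of the fold of NOD.L7 to NOD.g7 (exact binomial, Clopper-Pearson) lay below 1 for 21 of the 36 genes, spanned 1 for 13 and lay above 1 for Zbp1 and Stat2. Such an interval covers counting error only and leaves out the variation between mice, so an interval that excludes 1 compares these libraries and not the genotypes. Where the RNA present is shorter than the longest annotated transcript, the fragment number is too high and the interval too narrow. This may hold for Irf7, where the 3240 bases used exceed the whole span of the gene in the table. Intervals were not counted over all genes, so these counts have no share to stand beside. The intervals were made without the TMM factor, and bounds very near 1, such as those of Stat2 and Oas2, depend on that choice.

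**Figure D2:**
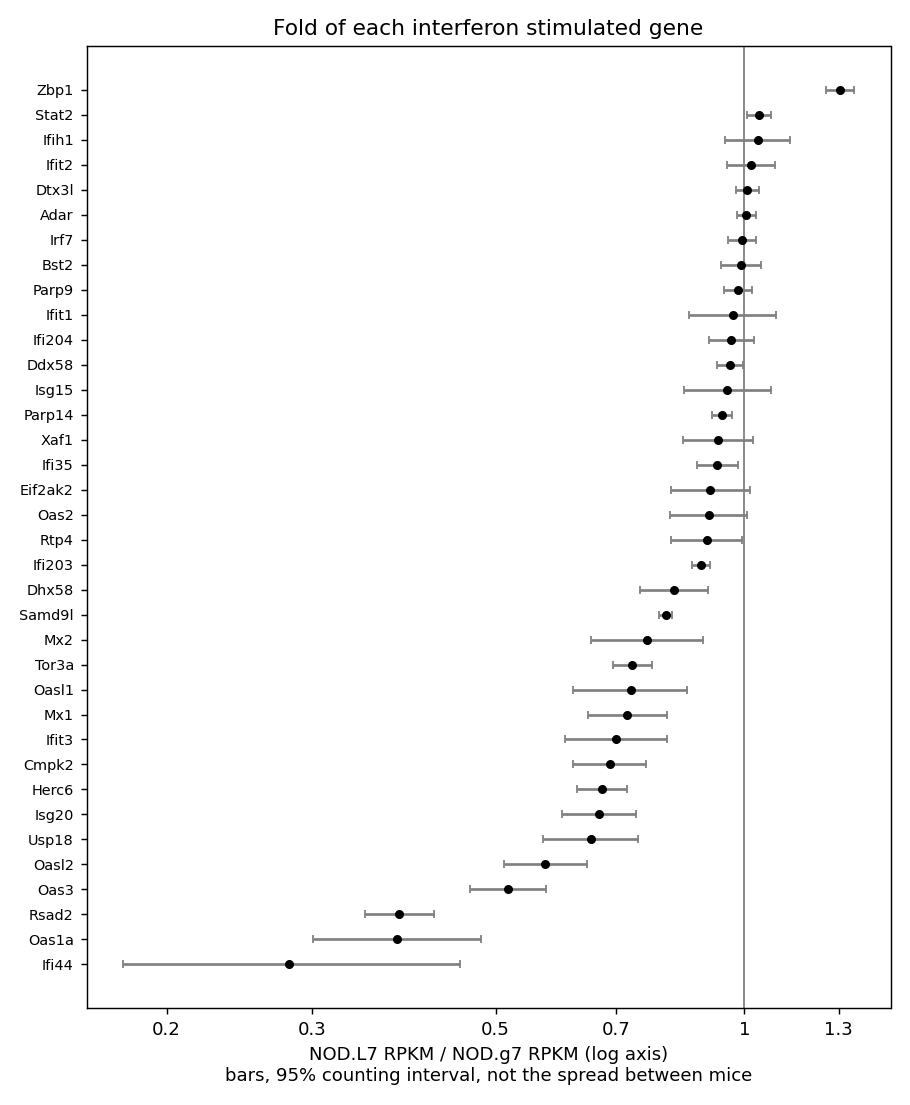
Fold of NOD.L7 to NOD.g7 for each of the 36 genes on a log axis, as the plain ratio of RPKM values, with the 95% counting interval as a bar. Folds run from 0.281 for Ifi44, whose bar is the widest, to 1.31 for Zbp1, and 13 bars cross the line at 1.

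The oligoadenylate synthetases make the messenger that activates RNase L, which then cleaves RNA, and the 2 synthetase-like genes Oasl1 and Oasl2 belong to the same family. All 5 were lower in NOD.L7 and their log2 ratios had a median of -0.63. Oas1a was at 2.60 in the NOD.g7 library and 0.988 in the NOD.L7 library, a fold of 0.380 (counting interval 0.301 to 0.480). Oas3, the largest of the synthetases, was at 3.96 and 2.05, a fold of 0.518 (0.465 to 0.576). Oasl2 was at 4.86 and 2.79 and Oasl1, an inhibitor of Irf7 translation, at 3.26 and 2.38. Oas2 differed least of the family, at 3.47 and 3.14, and its interval of 0.812 to 1.01 spanned 1. Oas2 and Oas3 are direct neighbours on chromosome 5, 3.25 kb apart in the table (build mm9), and their log2 ratios were -0.11 and -0.70. Oas1a has close copies in the same cluster, among them Oas1g, which was listed at 0.0230 and 0.0125, so the level of Oas1a is uncertain if the copies shared reads.

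Viperin, the product of Rsad2, converts CTP into a chain-terminating nucleotide, and Cmpk2 is a mitochondrial nucleotide kinase. The genes are neighbours on chromosome 12, 12.8 kb apart with no other gene of the table between them. Rsad2 was at 6.71 in the NOD.g7 library and 2.57 in the NOD.L7 library, a fold of 0.383 (counting interval 0.348 to 0.421). Of all genes that met the filter 0.215% had a log2 ratio as low as that of Rsad2 or lower. Cmpk2 was at 5.33 and 3.67, a fold of 0.688 (0.620 to 0.761), so both were lower in NOD.L7 and Rsad2 by more.

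The Mx genes encode dynamin-like GTPases that block viruses, and in most inbred mouse strains they carry disrupting mutations. Mx1 was at 4.33 in the NOD.g7 library and 3.13 in the NOD.L7 library, and Mx2 at 2.88 and 2.19. Their folds of 0.722 and 0.762 were close to each other, and neither interval reached 1, at 0.647 to 0.806 and 0.652 to 0.891. The group of viperin, Cmpk2 and both Mx genes had a median log2 ratio of -0.40. At a minimum RPKM of 5 only Rsad2 and Cmpk2 remained of these, and their median was -0.78.

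The ubiquitin-like protein Isg15 is attached to other proteins by a cascade whose mouse ligase is Herc6 and removed by the protease Usp18, which also inhibits signalling at Ifnar2. Isg15 itself was nearly equal, at 14.1 in the NOD.g7 library and 13.4 in the NOD.L7 library, with an interval of the fold of 0.844 to 1.08. Its ligase and its protease were lower, with Herc6 at 7.92 and 5.32 and Usp18 at 6.04 and 3.94. Their folds were 0.672 (counting interval 0.627 to 0.721) and 0.652 (0.570 to 0.744). The activating enzyme of this cascade is Uba7, at 48.1 and 41.8, and the conjugating enzyme is Ube2l6, at 19.5 and 10.7. The enzymes of the cascade named here were lower in NOD.L7, by 1.15-fold for Uba7 to 1.82-fold for Ube2l6, while the interval of Isg15 spanned 1. Of all genes that met the filter, 43.8% were lower. Uba7 was named after its value was seen, and no interval was made for Uba7 or Ube2l6.

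The IFIT proteins bind viral RNA and hinder its translation, and their genes form a cluster on chromosome 19. Ifit2 was at 8.76 in the NOD.g7 library and 8.92 in the NOD.L7 library, and Ifit1 at 3.95 and 3.82, so these were nearly equal. Ifit3, which lies between them and 7 kb from Ifit2, was at 5.17 and 3.61, a fold of 0.699 (counting interval 0.607 to 0.807). Ifit1 and Ifit3 have related copies in the cluster so that their own levels are uncertain. The copy of Ifit3 that the table lists as I830012O16Rik was at 1.18 and 1.01, and the copy of Ifit1 listed as Gm14446 was at 8.78 and 10.2.

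Among the sensors, the RNA helicases Ddx58 (RIG-I), Ifih1 (MDA5) and Dhx58 (LGP2) detect viral double-stranded RNA in the cytosol, with Dhx58 acting as a regulator of the others. Ddx58 was at 30.5 in the NOD.g7 library and 29.3 in the NOD.L7 library, and Ifih1 at 3.35 and 3.48. Dhx58 was lower, at 7.67 and 6.30, with a fold of 0.822 (counting interval 0.747 to 0.903). Both detecting helicases thus lay within 5% of equal, and the regulator was the lowest of the 3 by fold.

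Zbp1, which senses Z-form nucleic acid and can start necroptosis, went the other way at 26.5 in the NOD.g7 library and 34.5 in the NOD.L7 library, a fold of 1.31 (1.25 to 1.36). Its log2 ratio was 0.37, and 95.6% of all genes that met the filter had that value or a lower one. The DNA-binding proteins of the Ifi200 family were at 61.0 and 54.1 for Ifi203 and at 17.0 and 16.4 for Ifi204. Members of that family resemble each other in sequence, so both levels are uncertain. The 6 sensors had 4 members lower, 2 higher and a median of -0.05.

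The transcription factors that carry the signal were equal or nearly so. Irf7, which drives the later wave of interferon alpha genes, was at 30.2 in the NOD.g7 library and 30.0 in the NOD.L7 library, and the interval of its fold was 0.955 to 1.03. Stat2, the subunit particular to the type I and type III pathways, was at 31.0 and 32.3, with an interval of 1.01 to 1.08. Irf7 lies on distal chromosome 7 (148449088 to 148452300 in mm9), and Isg20 lies on the same chromosome (86058651 to 86065282). Without these 2 genes, 27 of 33 were below 0.

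Adar, the enzyme that edits adenosine to inosine in double-stranded RNA, was at 36.3 in the NOD.g7 library and 36.5 in the NOD.L7 library. Eif2ak2, the kinase PKR that halts translation when it binds double-stranded RNA, was at 3.08 and 2.80, and its interval of 0.815 to 1.01 spanned 1. The exonuclease gene Isg20 stood apart from these at 16.2 and 10.8, a fold of 0.666 (0.602 to 0.739). Isg20 was the 1 gene at or below a log2 ratio of -0.5 whose mean RPKM was over 5.

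Parp9 and Dtx3l form a complex that joins ADP-ribosylation with ubiquitination, and Parp14 is a further ADP-ribosyltransferase. Their genes are neighbours on chromosome 16, with Dtx3l and Parp9 1.84 kb apart. Parp9 was at 27.0 in the NOD.g7 library and 26.5 in the NOD.L7 library, Dtx3l at 26.3 and 26.5, and Parp14 at 26.8 and 25.1. The 3 genes were thus at like levels in each library, and the largest difference, that of Parp14, was 1.07-fold.

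Of the remaining effectors, Samd9l had the highest level of all 36 genes in both libraries. Samd9l, an antiviral and growth-restricting factor, was at 96.9 in the NOD.g7 library and 77.8 in the NOD.L7 library, a fold of 0.803 (0.789 to 0.817) that is the narrowest interval of the set. Bst2, the tetherin that holds budding virions and a surface marker of plasmacytoid dendritic cells in mice, was at 60.8 and 60.2. Tor3a, an ATPase of the endoplasmic reticulum, was at 16.9 and 12.4, a fold of 0.732 (0.694 to 0.773). These 3 thus held both equal and lower values. Ifi35, whose product partners with Nmi, was at 35.8 and 33.2. Rtp4, a receptor transporter that inhibits viral replication, was at 8.55 and 7.70, and the pro-apoptotic gene Xaf1 was at 6.28 and 5.83. For Ifi44, an antiproliferative gene, the values of 0.384 and 0.108 rest on few fragments, and its interval ran from 0.177 to 0.453.

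The larger differences lay mostly among the lower-expressed genes. Of the 14 genes with a mean RPKM under 5, 13 were below 0, beside 40.7% of all genes in that range of levels. At or below -0.5 were 5 of the 14, beside 3.64%. Of the 9 genes at a mean RPKM of 5 to 20, 8 were below 0, beside 42.2% of all genes in the range. At or below -0.5 was 1 of the 9, beside 1.09%. Of the 12 genes at 20 or more, 8 were below 0, beside 48.4% of all genes in the range, and 0 reached -0.5, beside 0.585%. The medians of these 3 ranges were -0.39, -0.14 and -0.02, against 0.04, 0.02 and 0.00358 for all genes. Across the 35 genes the level and the log2 ratio correlated with a Spearman rho of 0.50, and across all 11141 genes with -0.11. This describes genes measured in the same 2 libraries, which are not independent.

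**Figure D3:**
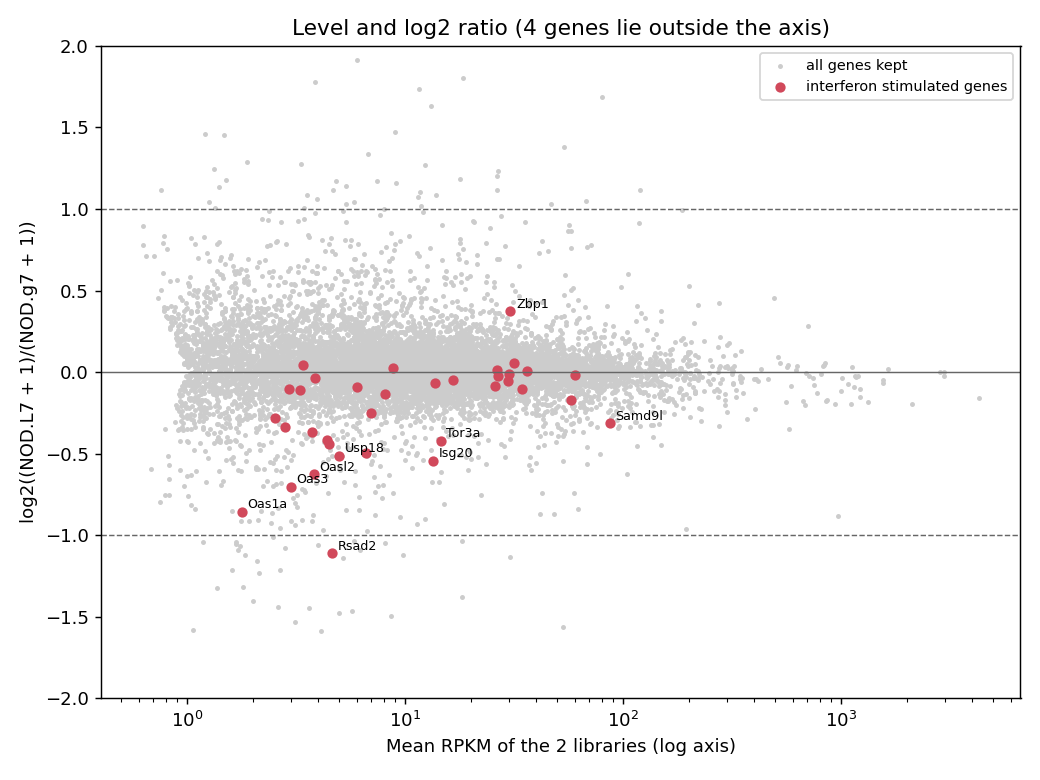
Log2 ratio against the mean RPKM (log axis) for all 11141 genes that met the filter, in grey, and for the 35 interferon stimulated genes, in red, with dashed lines at 1 and -1. The red points spread downward at mean levels under 5 and gather near 0 above 20, with Zbp1 above the rest and Samd9l below.

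The genes that stand before these targets in the pathway had medians near 0. All 18 type I interferon genes looked for, Ifnb1 among them, were listed at 0 in both libraries. Most interferon alpha genes are near-identical copies whose reads can be hard to assign, so for them the 0 is not a measured absence. For Ifnb1 the 0 means only that no read was assigned to it in these libraries. Of the 5 genes described for the receptor, its kinases and Irf9, 2 were lower and 3 higher, and the median log2 ratio was 0.00865. Ifnar1 was at 23.5 in the NOD.g7 library and 23.2 in the NOD.L7 library, and Ifnar2 at 26.7 and 27.0. Tyk2 was at 27.0 and 27.2 and Jak1 at 207 and 197. Irf9, the DNA-binding subunit of ISGF3, was somewhat higher in NOD.L7 at 41.0 and 45.7, a log2 ratio of 0.15.

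Of 14 adaptors and upstream factors of nucleic acid sensing, 6 were lower and 8 higher, with a median of 0.01. The endosomal receptor for double-stranded RNA, Tlr3, was the 1 gene of this list at or below -0.5, at 3.48 in the NOD.g7 library and 1.93 in the NOD.L7 library. The adaptor of the other Toll-like receptors, Myd88, was higher at 33.7 and 45.5. Mavs, the adaptor of Ddx58 and Ifih1, was at 17.7 and 20.4, and the cGAS gene, listed as E330016A19Rik, was at 1.97 and 2.27. Of 6 inhibitors of cytokine signalling 2 were lower and 4 higher. Socs3 was higher at 25.9 and 41.1 and Socs1 at 9.13 and 12.9, while the phosphatase genes Ptpn6 (317 and 314), Ptpn11 (26.1 and 27.7) and Ptpn2 (7.44 and 7.73) were close to equal. Pias1 was at 22.1 and 20.1.

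A further 41 type I interferon stimulated genes, listed apart from the 36, met the filter. Of these 30 were lower and 11 higher, beside 43.8% and 56.2% of all genes, and the median was -0.16. At or below -0.5 were 5 of the 41, beside 1.58% of all genes. Ddx60, a helicase that aids RIG-I signalling, was at 2.66 in the NOD.g7 library and 0.578 in the NOD.L7 library, a log2 ratio of -1.21. Ube2l6, named above, had a log2 ratio of -0.81, Trim30d was at 6.68 and 3.81, and the DNA sensor gene Aim2 was at 23.9 and 16.2. Both lists therefore had a median below that of all genes, in the same 2 libraries, and many of their members respond to more than one kind of interferon. Both were chosen with earlier results of these data known. The further list also holds relatives of the 36, such as Oas1b and Oas1c, that may share reads with them. It is therefore no separate support.

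In a list of interferon gamma, its receptors and its targets, 16 of 23 genes were higher, beside 56.2% of all genes that met the filter, and 7 were lower, with a median of 0.12. Ifng itself, the gene of the cytokine, was at 1.06 in the NOD.g7 library and 1.32 in the NOD.L7 library. The GTPase genes Igtp (52.9 and 72.2) and Irgm2 (17.1 and 23.1) were higher, as was the inhibitor gene Socs1 named above. Ciita, the master regulator of MHC class II genes, was lower at 78.3 and 62.7. No gene of this list reached a log2 ratio of 0.5 in either direction. Cxcl10 and Tap1 were in both this list and that of the further type I genes.

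**Figure D4:**
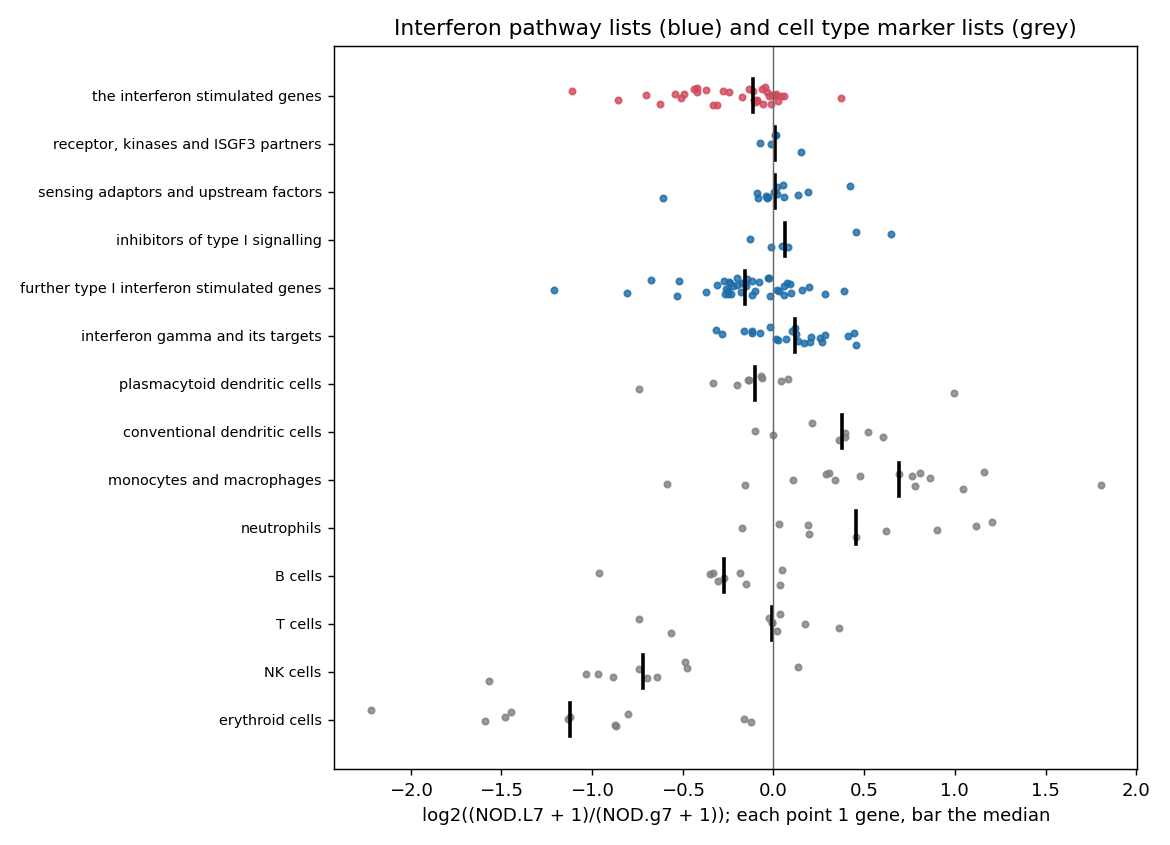
Log2 ratios of single genes (points) and their median (bar) for the 35 interferon stimulated genes in red, 5 interferon pathway lists in blue and 8 lists of cell type markers in grey. The further type I genes have a median of -0.16 and the interferon gamma list one of 0.12, and the marker lists range from -1.12 for erythroid cells to 0.69 for monocytes and macrophages.

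Whole spleen is a mixture of cell types. The libraries expressed the defining genes of spleen lymphocytes, with all 9 B cell and all 9 T cell markers above the filter, and no marker listed at 0 in both libraries for any of the 8 cell types. Several lists differed between the same libraries as the interferon stimulated genes. The summed RPKM of 10 NK cell markers was 247 in NOD.g7 and 126 in NOD.L7, with 9 of 10 lower, such as Gzma (79.9 and 26.3) and Ncr1 (24.9 and 11.6). Of 11 erythroid markers all were lower, and the sum was 170 and 79.2, with Slc4a1 at 22.1 and 3.97 and Rhd at 6.71 and 1.56. Of 9 B cell markers 7 were lower, for a sum of 2745 and 2250, with Fcer2a at 257 and 132 and Cd79b at 651 and 511. Cr2 (148 and 152) and Blnk (84.0 and 86.7) were slightly higher.

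Most myeloid markers were higher in NOD.L7. The sum for 15 monocyte and macrophage genes was 426 and 660, with 13 higher, among them Cd14 (7.64 and 29.1) and Cd163 (5.26 and 13.0). Lower in that list were Cx3cr1 (13.2 and 8.44) and Nr4a1 (29.5 and 26.3). For 9 neutrophil genes the sum was 834 and 1098, with 8 higher, among them Cxcr2 (15.6 and 37.1) and Retnlg (16.4 and 36.8), and Camp lower (39.1 and 34.5). Of 8 conventional dendritic cell genes 6 were higher, such as Batf3 (3.86 and 6.37) and Itgax (20.8 and 30.3), for a sum of 59.4 and 79.4. In that list Clec9a (2.40 and 2.39) was close to equal and Xcr1 (1.52 and 1.34) was lower. Plasmacytoid dendritic cells are potent producers of type I interferon. Of their 10 markers 7 were lower and 3 higher, with a sum of 379 and 334. The highest genes among these markers, Spib (154 and 140) and Ly6d (134 and 106), made up most of that sum and of its difference. Within that list Ccr9 was at 11.3 and 6.34 and Cox6a2 at 5.02 and 11.0, so its genes went in both directions. T cell markers summed to 975 and 965, with 5 of 9 lower and a median log2 ratio of -0.00553. Cd8a (53.7 and 31.7) and Cd8b1 (81.8 and 54.9) were lower, Cd4 (106 and 136) and Cd5 (68.7 and 77.6) were higher, and the 3 CD3 genes and Lck were close to equal. The part of these cell types in the lower values of the interferon stimulated genes was not tested.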

How the data were processed

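The authors deposited 1 table with coordinates, a symbol and 1 RPKM value per library for each gene. The genome build was mm9 and the tools included CASAVA 1.8.2 and SAMtools 0.1.18, per the submitters' processing notes, and RNeasy extraction with a TruSeq RNA kit was used, per the labels' protocols. Details not given in the sources used here include the gene models, the strandedness and the handling of multiply matching reads. The value columns of the table are headed NOD and NOD.LC7, read here as the NOD.g7 and the NOD.L7 library.

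Depth was recovered from the steps of low RPKM values of single-exon genes under 2500 bases, whose product with gene length was a whole multiple of 1 sequenced base, within 0.15, for 100% of 86 NOD.g7 values and 103 NOD.L7 values. No count model was applied. The log2 ratio used a pseudocount of 1 and a minimum RPKM of 1 in either library. Marks at 0.5 and 1 on the log2 scale are size rules, not tests. Transcript lengths came from GENCODE M21 and promoters from RefSeq.

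The members and lists were chosen with earlier results of these data known, so counts describe them and support nothing further. All 36 members are named. From each pathway list all genes were named where at most 6 met the minimum, otherwise the 4 with the largest absolute log2 ratio, and from each marker list 2. Uba7, Oas1g, Ifnb1, Ifng, Cd4, Cd5, the CD3 genes, Lck, I830012O16Rik and Gm14446 were named after their values were seen. So were Spib, Ly6d, Cx3cr1, Nr4a1, Camp, Clec9a, Xcr1, Cr2, Blnk, Gzmb, Cxcl10 and Tap1. List symbols absent from the table were looked up through RefSeq synonyms. Of 7 symbols that added no row, 4 were not matched (Ifi27, Phf11d, Ly6g and Epb4.2) and 3 were second names of a gene already in the list, and 1 gene of the pathway lists is not reported here. The calculation was tested on simulated data (Python 3.11.15, pandas 2.3.3, SciPy 1.17.1).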

Additional observations from a re-analysis of the deposited data

How the results depend on the processing

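No setting can show how values vary between mice, with a single library on either side. No paired analysis was possible because neither genotype has a second library. The number of all genes with an absolute log2 ratio of at least 1 was 79, and it was 166 with a pseudocount of 0.1, 124 with 0.5 and 52 at a minimum RPKM of 5, which tests fewer genes. Of the interferon stimulated genes 1 passed, Rsad2, and 2 passed with a pseudocount of 0.1 and 2 with 0.5, Oas1a being added; a smaller pseudocount raises the ratio of low genes by construction. The number below 0 was 29 of 35, 20 of 25 at a minimum RPKM of 5, 20 of 26 without members of families that can share reads, and 31 of 35 with median centring or the TMM factor. The share of all genes below 0 was counted only without these changes, at 43.8%, and centring or the TMM factor raises it. The median of the interferon stimulated genes ran from -0.14 with a pseudocount of 0.1 to -0.09 at a minimum RPKM of 5. At a minimum RPKM of 5 the medians of groups with fewer genes left also moved, to -0.78 for viperin, Cmpk2 and the Mx genes (2 of 4 left), from -0.04 to -0.20 for the IFIT genes (2 of 3 left) and from -0.10 to -0.27 for Adar, Eif2ak2 and Isg20 (2 of 3 left). Scaling moved the ratios by 0.02 and changed the sign of 2 genes, Adar and Dtx3l. Depth limits Ifi44 most, with 27 fragments in NOD.L7.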

Other observations

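The genes that lie between neighbouring members of the clusters were looked at after their values were seen. In the Oas cluster on chromosome 5, Oas1b was at 7.90 in the NOD.g7 library and 8.48 in the NOD.L7 library and Oas1c at 6.82 and 5.29, while Oas1a was at 2.60 and 0.988. Oas1e, Oas1f and Oas1h were each under 0.1 in both libraries. In the Ifi200 cluster on chromosome 1, Mndal was at 98.5 and 94.5 and Mnda at 5.50 and 5.77, between Ifi204 and Ifi203. The related gene Ifi205, of the list of further type I genes, was at 4.39 and 6.06. Neighbouring genes of one family thus lay on both sides of equal in each cluster.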
